A study of Mus musculus with 16 samples.

Results

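The genes described here encode zinc transporters and metallothioneins, the proteins that move zinc across membranes and bind it in the cytosol. They are 10 of the 54532 genes of the count table and were chosen by symbol: *Slc39a10*, *Slc39a6*, *Slc39a14*, *Slc39a1*, *Slc39a3*, *Slc39a7*, *Slc30a1*, *Slc30a5*, *Mt1* and *Mt2*. *Slc39a10* was picked for its strong rise with beads, so every comparison of beads with no beads is a description without a test for these genes. The difference between the PGE2 effects with and without beads was tested, although it draws on the same values. Low counts removed *Mt2*, and the other 9 genes were tested. In cells without beads, PGE2 lowered *Slc39a10* to 0.629 of the untreated level, and *Slc39a6* and *Slc30a5* fell less, whereas *Slc39a1* rose by 0.19 on the log2 scale. These 4 of the 9 genes passed the test, against 28.4% of all genes tested. Only *Slc39a10* passed in a fit of all 16 samples. In cells with beads, none of the 9 genes passed the test for PGE2, against 9.84% of all genes tested. These tests did not pair samples. With the replicate number as a block, 3 genes passed as higher and 4 as lower without beads, against 47.8% of all genes. With beads, 1 passed as higher and 2 as lower, against 39.8%. The block assumes that samples of the same number belong together, which the labels do not say.

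Zinc enters the cytosol through ZIP proteins, which the Slc39a genes encode, and leaves it through ZnT proteins, encoded by the Slc30a genes. Metallothioneins are small cysteine-rich proteins that hold zinc and copper, and their genes are switched on by the zinc-sensing transcription factor MTF1. In T cells, zinc enters after contact with the antigen receptor and takes part in signalling through kinases such as LCK.

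The RNA was bulk RNA from spleen-derived CD8+ T cells of C57BL/6J mice, which had been taken as naive cells and activated again and again in culture over 4 days into TCF1+CD8+ T cells, cells that keep the stem-like transcription factor TCF1. The 4 groups had 4 replicates each, 16 samples in all. Cells spent 1 h with PGE2 at 100 ng ml–1, a prostaglandin, or without it. They then spent 4 h in IL-2 at 85 U ml–1, alone (called unstimulated) or together with 1 anti-CD3/CD28 bead per cell (called stimulated), so every group had received IL-2 and had met beads during culture. The 4 groups were thus unstimulated untreated, unstimulated with PGE2, stimulated untreated and stimulated with PGE2. The labels give neither the mice behind a replicate nor what samples of the same number share, so p-values measure the spread between these samples, which may be technical. In bulk RNA, fewer cells expressing a gene and less RNA per cell cannot be told apart.

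Each library held 22678254 to 42950763 counts. Levels are given as CPM, counts divided by the TMM-scaled library size, as mean ± SD with n = 4, and levels of different genes are compared only in FPKM, the authors' values per kilobase of gene. All 7 CD8 T cell markers were present, with *Cd8a* between 667 and 1209 CPM. *Tcf7*, which encodes TCF1, had group means of 1175 and 1187 CPM without beads and of 309 and 407 CPM with beads. Markers of other cells were low: *Ncr1*, *Hbb-bs* and *Hbb-bt* were at 0 in every library, *Lyz2* reached 0.0551 CPM, and the 4 B cell markers summed to 0.794 to 6.17 CPM. The 4 CD4 T cell markers summed to 27.4 to 40.6 CPM without beads and to 18.0 to 27.6 CPM with beads, with *Cd4* itself at 1.87 CPM or less. *Zbtb7b* was the largest of the 4, with group means of 24.1094 and 27.3094 CPM without beads and 14.9995 and 15.9852 CPM with beads. *Foxp3* was also lower with beads (5.93 and 5.52 against 4.24 and 4.33 CPM). *Cd40lg* went the other way, from 0.366 and 0.435 CPM to 2.91 and 2.61 CPM. The sums therefore do not measure a content of CD4 T cells. The part of these markers in the bead comparisons was not tested.

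Promoter windows at RefSeq starts of both metallothionein genes, of *Slc30a1* and of *Slc39a10* are shown. The first 3 genes are textbook targets of MTF1. The last had the largest bead response among the 9 genes that passed the filter. Each window runs from 250 bases before to 50 bases after the RefSeq start (GRCm38.p6), 5′ to 3′ on the strand of the gene. Capitals mark the core of the metal response element, TGCACNC or TGCGCNC, on either strand. The windows are chr8:94178839-94179138 (plus strand) for *Mt1*, chr8:94172368-94172667 (plus) for *Mt2*, chr1:191906531-191906830 (plus) for *Slc30a1* and chr1:46853569-46853868 (minus) for *Slc39a10*.
Mt1: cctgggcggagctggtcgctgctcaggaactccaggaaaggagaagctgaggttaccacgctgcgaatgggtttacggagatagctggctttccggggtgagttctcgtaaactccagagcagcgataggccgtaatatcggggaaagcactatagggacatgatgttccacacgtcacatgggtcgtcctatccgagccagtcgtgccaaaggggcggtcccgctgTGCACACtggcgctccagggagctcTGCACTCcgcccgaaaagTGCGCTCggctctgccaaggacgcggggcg
Mt2: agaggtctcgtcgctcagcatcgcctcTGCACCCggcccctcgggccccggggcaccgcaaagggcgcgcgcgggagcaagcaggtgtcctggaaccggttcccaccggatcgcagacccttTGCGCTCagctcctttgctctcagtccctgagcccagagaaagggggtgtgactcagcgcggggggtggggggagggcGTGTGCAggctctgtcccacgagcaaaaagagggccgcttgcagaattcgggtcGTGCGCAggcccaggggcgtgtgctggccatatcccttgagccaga
Slc30a1: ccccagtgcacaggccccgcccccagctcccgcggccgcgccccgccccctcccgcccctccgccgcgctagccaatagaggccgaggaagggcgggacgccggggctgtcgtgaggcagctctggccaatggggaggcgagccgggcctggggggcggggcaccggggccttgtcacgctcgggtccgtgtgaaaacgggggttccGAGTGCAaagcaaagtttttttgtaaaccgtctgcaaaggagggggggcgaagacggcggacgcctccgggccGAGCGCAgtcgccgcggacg
Slc39a10: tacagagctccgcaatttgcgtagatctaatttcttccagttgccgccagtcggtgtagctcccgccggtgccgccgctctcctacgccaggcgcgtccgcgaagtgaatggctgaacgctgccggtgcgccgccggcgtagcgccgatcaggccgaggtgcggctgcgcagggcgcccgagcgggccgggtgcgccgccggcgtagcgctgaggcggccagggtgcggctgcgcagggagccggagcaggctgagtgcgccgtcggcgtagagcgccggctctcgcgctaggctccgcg
The *Slc39a10* window is 1 of its 2 RefSeq starts, the other lying outside the gene as the count table bounds it. The core occurred 3 times in the *Mt1* window, 4 times in that of *Mt2*, 2 times in that of *Slc30a1* and 0 times in either of *Slc39a10*. Of the 32817 windows of this length in the RefSeq table, 25.7% held at least 1 core, 7.12% at least 2, 1.97% at least 3 and 0.518% at least 4. Windows were found for 8 of the 10 genes, and among the rest *Slc39a3* and *Slc30a5* held 1 core each and *Slc39a1* and *Slc39a7* none. The cAMP response element TGACGTCA, present in 1.79% of windows, was in none of the 8 genes' windows. These matches describe letters, not binding. Sequence outside these windows was not searched, so a count of 0 does not show that a gene lacks such elements or is no target of MTF1.

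Per kilobase, *Mt1* was the most abundant of the 9 genes that passed the filter in every group. It had 66.5 ± 16.2 FPKM in unstimulated untreated cells and 51.1 ± 12.2 FPKM in stimulated cells with PGE2 (SD, n = 4). *Slc39a1*, a ZIP of the plasma membrane, came next without beads, at 25.3 ± 0.863 FPKM in untreated cells, followed by *Slc39a6* at 17.2 ± 2.28 FPKM. *Slc39a10* was the sixth in unstimulated untreated cells at 3.97 ± 0.539 FPKM, overlapping *Slc39a14* at 3.03 ± 0.460 FPKM. In stimulated untreated cells it was the fourth at 18.2 ± 1.19 FPKM, below *Slc39a1* at 27.2 ± 1.83 FPKM and above *Slc30a5* at 14.0 ± 2.04 FPKM without overlap. *Slc30a1* was the lowest of the 9 genes that passed the filter, at 1.30 to 1.54 FPKM. The FPKM of *Mt1* rests on a gene length of 1246 bases, while its annotated transcripts have 549, 633 and 1085 bases, so a value per transcript would be higher. The other values rest on such lengths too, 6095 bases for *Slc39a10* and 10550 bases for *Slc39a14*. The order of the genes therefore depends on these lengths.

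**Figure D1:**
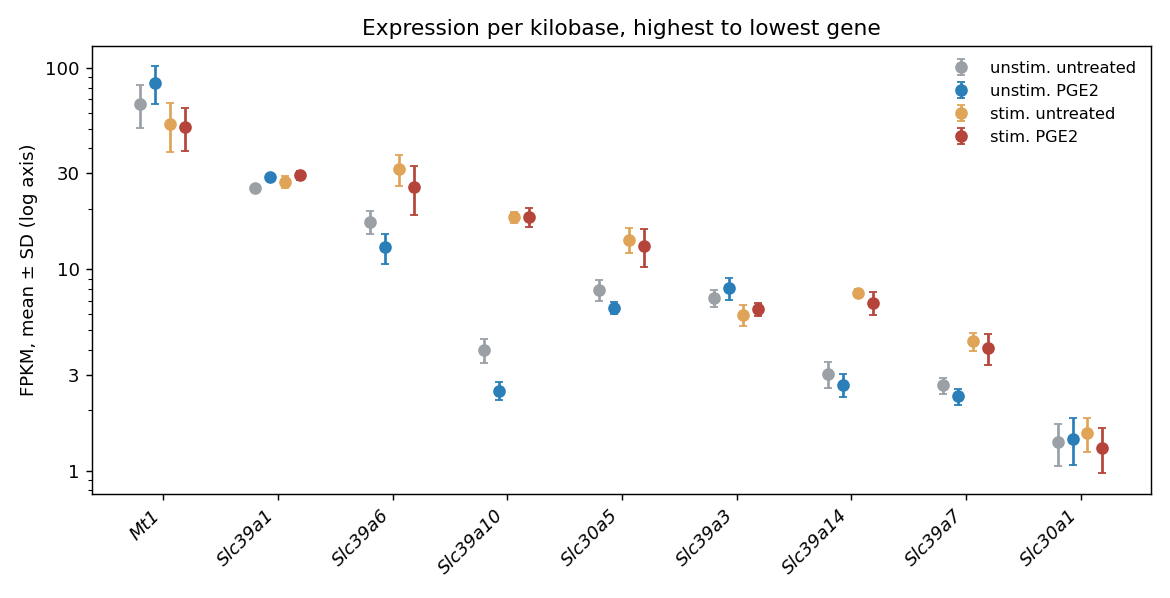
Expression per kilobase (FPKM, log axis) of the 9 genes that passed the filter, ordered by their mean over the groups. Points are group means, bars are SD over 4 replicates and colours are the 4 groups. *Mt1* lies at the top in every group, and *Slc39a10* moves from 2.50 and 3.97 FPKM without beads to 18.2 FPKM in both groups with beads.

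*Slc39a10* (chr1:46807544-46892852, minus strand, GRCm38, 12 merged exons) encodes ZIP10, a zinc importer of the plasma membrane. In unstimulated untreated cells its level was 24.3, 24.7, 22.4 and 30.4 CPM in replicates 1 to 4. With PGE2 it was 15.7, 15.4, 14.0 and 18.1 CPM. The highest treated sample lay below the lowest untreated one. A gene is called below where the adjusted p of edgeR's quasi-likelihood test (Benjamini-Hochberg over all genes tested) is under 0.05. For PGE2 in unstimulated cells the log2 fold change of *Slc39a10* was -0.67 (SE 0.108, adjusted p = 0.000847). The unstimulated samples also enter the bead responses that *Slc39a10* was picked on, so this adjusted p is not wholly independent of that choice. In same-numbered samples the treated level was 0.594 to 0.645 of the untreated level, lower in 4 of 4.

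In stimulated untreated cells *Slc39a10* stood at 109.7, 117, 110.4 and 129 CPM. In stimulated cells with PGE2 it stood at 125, 129, 103 and 110.4 CPM. These groups overlapped, with means of 116 ± 8.94 and 117 ± 12.1 CPM. The PGE2 effect there was 0.01 on the log2 scale (SE 0.0896, adjusted p = 0.949 by edgeR), and replicates 1 and 2 were higher and replicates 3 and 4 lower with PGE2. The difference between the PGE2 effects with and without beads, the interaction term of a fit over all 16 samples, was 0.69 (SE 0.144, adjusted p = 0.0315 by edgeR). This call was the only 1 among the 9 genes, against 0.749% of 15096 genes. Its adjusted p is not independent of how *Slc39a10* was chosen, because the bead responses with and without PGE2 make up the same term. It was lost in 8 of 16 fits that left out 1 library, those without unstimulated untreated replicate 2, unstimulated PGE2 replicate 2 or 3, stimulated untreated replicate 1, 2 or 3 or stimulated PGE2 replicate 1 or 2 (adjusted p 0.0507 to 0.0881), and on the FPKM values tested with limma (adjusted p 0.0663 to 0.215).

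With beads, *Slc39a10* was 4.52-fold higher without PGE2 (log2 2.18, SE 0.0956) and 7.47-fold higher with PGE2 (log2 2.90, SE 0.109). Counted from the highest log2 fold change down, it ranked 310 of 14205 genes without PGE2 and 189 of 14507 genes with PGE2. These values chose the gene and are given as a description. The means of the groups with beads differed by less than their SD, whereas the groups without beads did not overlap.

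**Figure D2:**
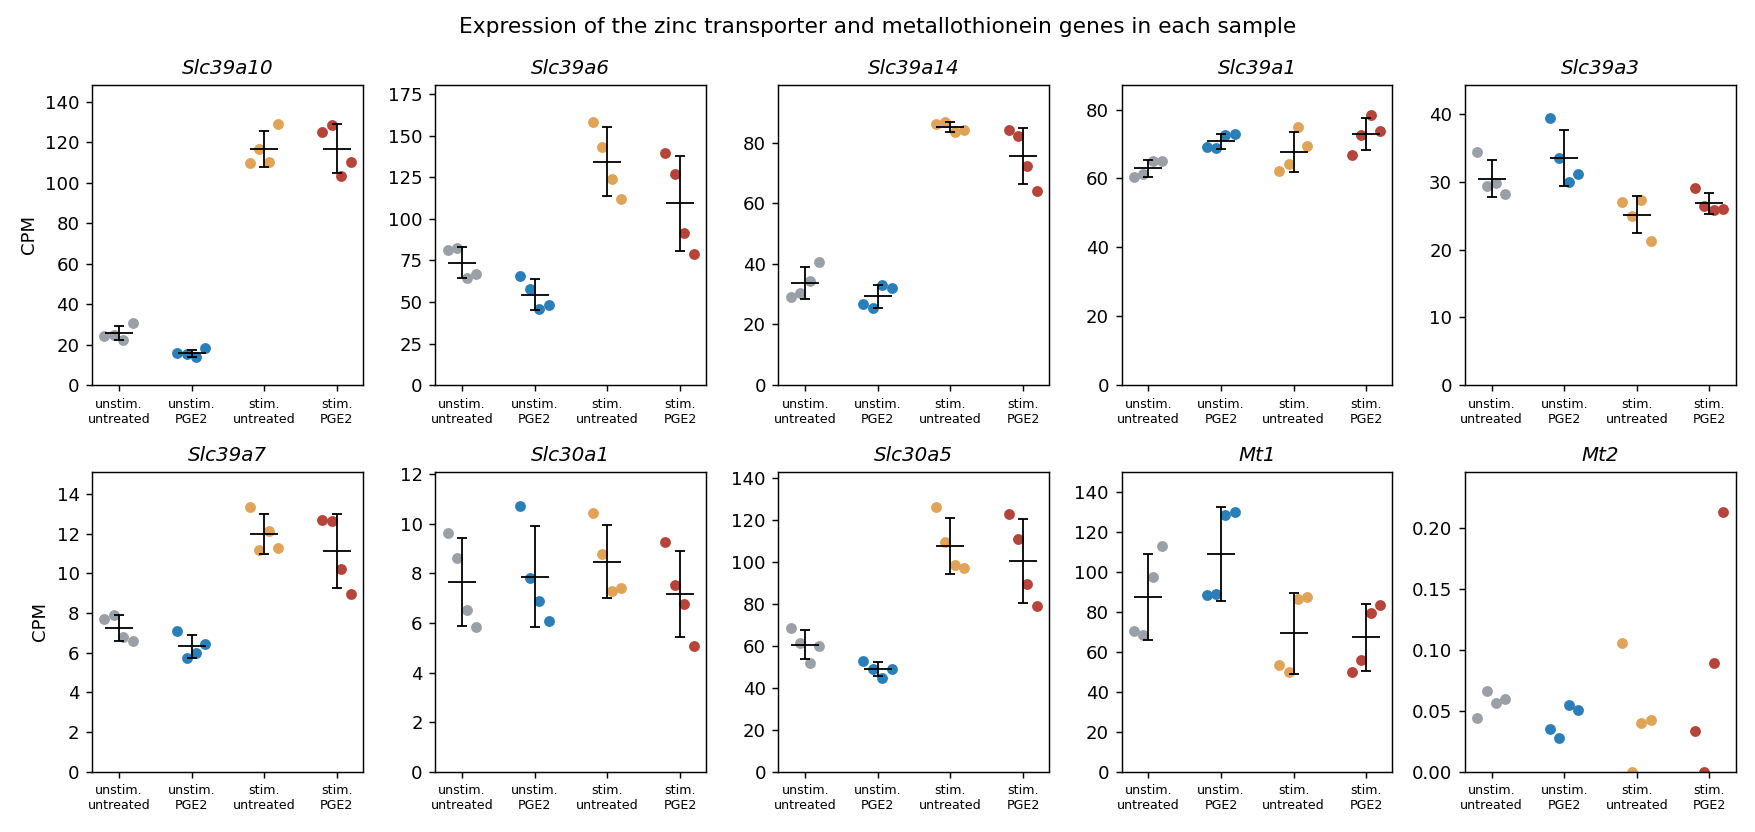
CPM of the 10 genes in each sample, 1 panel per gene with its own axis from 0. Points are the samples in the order of replicates 1 to 4, black lines are the mean and SD of 4 replicates, left out for *Mt2*, which had at most 5 counts in a library. *Slc39a10* without beads lies between 14.0 and 30.4 CPM, and with beads between 103 and 129 CPM.

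*Slc39a6* (chr18:24579881-24603817) encodes ZIP6, the closest relative of ZIP10 and also a zinc importer. Its level in unstimulated cells was 81.4, 82.3, 64.2 and 67.2 CPM without PGE2 and 65.7, 58.0, 45.7 and 48.4 CPM with it. Replicate 1 with PGE2 overlapped the untreated range, although each treated sample lay below the untreated sample of its number. The log2 fold change of *Slc39a6* was -0.42 (SE 0.112, adjusted p = 0.0155 by edgeR). Without unstimulated untreated replicate 2 the adjusted p was 0.0741. In stimulated cells it was 159, 144, 124 and 112 CPM without PGE2 and 139.6, 127, 91.6 and 79.0 CPM with PGE2, and the test gave -0.29 (SE 0.177, adjusted p = 0.310). With the replicate number as a block the adjusted p was 0.00238 for a change of -0.31 (SE 0.0614), so the call in stimulated cells depends on the pairing.

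*Slc39a14* (chr14:70303469-70351425) encodes ZIP14, which carries zinc, iron and manganese. Without beads it stood at 28.9, 30.5, 34.4 and 40.7 CPM untreated and at 26.9, 25.3, 32.9 and 31.9 CPM with PGE2. With beads it stood at 86.3, 87.0, 83.4 and 84.1 CPM untreated and at 84.1, 82.3, 72.4 and 64.1 CPM with PGE2. The groups of each PGE2 comparison overlapped, and the log2 fold changes were -0.18 (SE 0.123, adjusted p = 0.316) and -0.16 (SE 0.0869, adjusted p = 0.253). With the replicate block both passed, at adjusted p = 0.0175 and 0.0437. Its 4 stimulated untreated samples lay close together, with an SD of 1.71 CPM. The bead response was 2.50-fold without PGE2 and 2.61-fold with it, the next largest after *Slc39a10*.

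*Slc39a1* (chr3:90248172-90253612) encodes ZIP1, a widely expressed importer. Its 4 samples in unstimulated untreated cells were 60.5, 61.3, 65.1 and 65.1 CPM. With PGE2 they were 69.0, 69.0, 72.6 and 72.9 CPM. All treated samples lay above all untreated ones, by a log2 fold change of 0.19 (SE 0.0567, adjusted p = 0.0269 by edgeR). Its adjusted p was 0.0552 to 0.0802 without unstimulated untreated replicate 1 or 2 or unstimulated PGE2 replicate 3 or 4, and 0.0598 without a filter on low counts. In stimulated cells, 62.3 to 75.0 CPM without and 66.9 to 78.4 CPM with PGE2 gave 0.11 (SE 0.0805, adjusted p = 0.376), and 0.0475 with the replicate block. Between beads and no beads its log2 values were 0.09 and 0.06, and these turned to -0.01 and -0.07 with upper-quartile scaling, which itself moved the median of all genes to -0.13 in both bead comparisons. The value with PGE2 was also -0.01 without stimulated PGE2 replicate 3.

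*Slc39a3* (chr10:81028538-81037426) encodes ZIP3, another importer. Its group means were 30.5 ± 2.73 CPM in unstimulated untreated cells and 33.5 ± 4.16 CPM with PGE2. They were 25.2 ± 2.78 CPM in stimulated untreated cells and 26.8 ± 1.57 CPM with PGE2. Of the 6 ZIP genes it was the gene with lower values in the groups with beads, with a log2 fold change of -0.29 without PGE2 and -0.30 with PGE2. For PGE2 in unstimulated cells the test gave 0.16 (SE 0.0861, adjusted p = 0.203), and adjusted p = 0.0209 with the replicate block.

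*Slc39a7* (chr17:34028267-34031690) encodes ZIP7, which releases zinc from the endoplasmic reticulum. It had 175 to 505 counts per library, 7.25 ± 0.652 and 6.32 ± 0.591 CPM without beads and 12.0 ± 1.02 and 11.1 ± 1.85 CPM with beads. The gene Gm20427 on the same strand shares 80.7% of its exon bases and had 131 counts in all 16 libraries. Reads over shared bases can be left out or assigned to either gene in counting, so the level of *Slc39a7* is uncertain. Neither PGE2 comparison called it (-0.18, adjusted p = 0.267 and -0.10, adjusted p = 0.638 by edgeR).

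Of the exporters, *Slc30a5* (chr13:100802648-100833427) encodes ZnT5, which loads zinc into the secretory pathway. It stood at 68.5, 61.5, 51.6 and 60.0 CPM in unstimulated untreated cells and at 52.6, 49.0, 44.8 and 49.1 CPM with PGE2. The ranges overlapped through untreated replicate 3, and the log2 fold change was -0.28 (SE 0.0780, adjusted p = 0.0180 by edgeR). The adjusted p was 0.0585 to 0.0753 without unstimulated PGE2 replicate 2 or 3 or unstimulated untreated replicate 2. In stimulated cells its values were 126, 109, 98.5 and 96.8 CPM, and 123, 111, 89.2 and 78.7 CPM with PGE2, a log2 fold change of -0.09 (SE 0.138, adjusted p = 0.687).

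*Slc30a1* (chr1:191906767-191913247) encodes ZnT1, the exporter of the plasma membrane. Its group means ran from 7.17 ± 1.74 CPM in stimulated cells with PGE2 to 8.47 ± 1.48 CPM in stimulated untreated cells, and all 4 groups overlapped. PGE2 gave 0.06 (SE 0.191, adjusted p = 0.858) without beads and -0.23 (SE 0.187, adjusted p = 0.435) with beads by edgeR. An antisense gene, 1700034H15Rik, shares 8.92% of the exon bases of *Slc30a1* and had 156 counts in all 16 libraries. The library kit does not mark strand.

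*Mt1* (chr8:94179082-94180327, plus strand) encodes metallothionein 1. In unstimulated untreated cells it stood at 70.3, 68.5, 97.3 and 113 CPM. With PGE2 it stood at 88.3, 88.8, 128 and 129.9 CPM. The groups overlapped, and the test without pairing gave a log2 fold change of 0.34 (SE 0.186, adjusted p = 0.203 by edgeR). Each treated sample was higher than the untreated sample of its number, by 1.15- to 1.32-fold in 4 of 4, and with the replicate block *Mt1* was called (0.35, SE 0.0399, adjusted p = 2.10e-06). In stimulated cells the values were 53.5, 50.0, 86.2 and 87.2 CPM untreated and 49.9, 56.0, 79.1 and 83.5 CPM with PGE2. That comparison gave -0.04 (SE 0.225, adjusted p = 0.930), and -0.03 (adjusted p = 0.701) with the block. The difference between the PGE2 effects was -0.36 (SE 0.312, adjusted p = 0.850), and with the block it had the same size and an adjusted p of 0.0267. The block assumes pairing in all groups, which was weak between the groups with PGE2. With beads *Mt1* was lower, by a log2 fold change of -0.36 without PGE2 and -0.69 with PGE2.

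*Mt2* (chr8:94172664-94173568, plus strand) ends 5513 bases before the start of *Mt1*. It had 1, 2, 2 and 2 counts in unstimulated untreated cells, 1, 1, 2 and 2 with PGE2, 4, 0, 1 and 1 in stimulated untreated cells and 1, 0, 3 and 5 in stimulated cells with PGE2. That is 28 counts in all, against 41298 for *Mt1*. A count of 0 allows up to 0.110 CPM in stimulated untreated replicate 2 and up to 0.126 CPM in stimulated PGE2 replicate 2. An antisense gene, Gm45774, covers 73.5% of the exon bases of *Mt2* and had 48 counts in all. Reads that lie over both genes cannot be told apart without strand and may have been left uncounted, so these counts do not give the level of *Mt2*. Its part in the low count was not tested.

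Across the 9 genes, PGE2 in unstimulated cells called 4, of which 3 were lower (*Slc39a10*, *Slc39a6*, *Slc30a5*) and 1 higher (*Slc39a1*). Of the 14505 genes tested, 28.4% were called, 15.5% lower and 12.9% higher. The median log2 fold change of the 9 was -0.18, against -0.00 for all genes tested. No gene of the 9 changed by 2-fold or more, as 3.38% of all genes did with an adjusted p under 0.05 (DEGs). The groups did not overlap in 2 of the 9, against 28.9% of all genes. With the replicate block 7 of the 9 were called, against 47.8% of all genes. In a fit of all 16 samples only *Slc39a10* was, as without unstimulated untreated replicate 2, and without unstimulated PGE2 replicate 3 the count was 2.

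In stimulated cells, PGE2 called 0 of the 9 genes, against 9.84% of 13922 genes (6.04% higher, 3.80% lower) and 1.75% DEGs. At an unadjusted p under 0.05 the count was also 0 by edgeR, and DESeq2 and limma called 0 after adjustment. The 2 groups overlapped in all 9 genes, while 17.9% of all genes did not overlap. The median was -0.09, against -0.01 for all genes. With the replicate block 3 were called (*Slc39a6* and *Slc39a14* lower, *Slc39a1* higher), against 39.8% of all genes. For the interaction the block called 2, *Slc39a10* and *Mt1*, against 2.70%. That block assumes pairing in all groups. Between the 2 groups with PGE2, same-numbered samples correlated at only 0.0439 and 0.0911 in replicates 2 and 4.

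**Figure D3:**
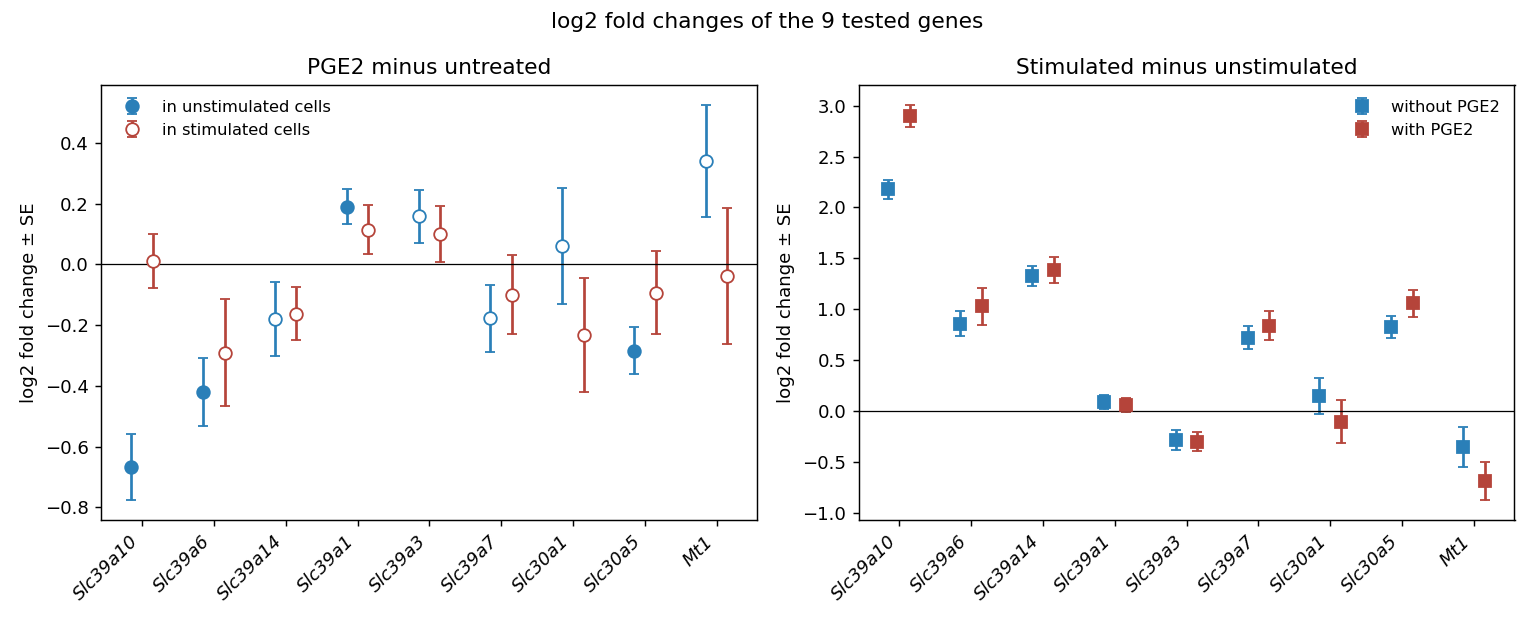
log2 fold changes of the 9 genes with their SE, for PGE2 against untreated cells on the left and for beads against no beads on the right. On the left, filled points have an adjusted p under 0.05 by edgeR and open points do not. The squares on the right carry no test. *Slc39a10* lies at -0.67 without and 0.01 with beads on the left, and at 2.18 and 2.90 on the right.

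The bead responses of the 10 genes are a description, since the choice of genes used them. In all, 5 genes lay higher in all samples with beads than in all samples without, with and without PGE2. Their log2 fold changes without and with PGE2 were 2.18 and 2.90 for *Slc39a10*, 1.32 and 1.39 for *Slc39a14*, 0.86 and 1.03 for *Slc39a6*, 0.82 and 1.06 for *Slc30a5*, and 0.72 and 0.84 for *Slc39a7*. *Slc39a3* was lower without overlap in both, and *Mt1* in the comparison with PGE2. The groups did not overlap in 6 and 7 of the 9, against 61.6% and 60.2% of all genes, and nothing is read from these counts. The median log2 fold change of the 9 was 0.72 without PGE2 and 0.84 with PGE2, against -0.03 and 0.00 for all genes tested.

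In 4 of the 9 genes, replicates 1 and 2 lay apart from replicates 3 and 4 in the same direction in every group. *Mt1* and *Slc39a1* were higher in replicates 3 and 4 than in replicates 1 and 2 in all 4 groups, and *Slc39a6* and *Slc30a1* were lower. Such an order in all 4 groups was found in 9.27% of 15096 genes. After the group means were taken out, the log2 CPM of *Mt1* and *Slc39a6* had a Pearson r of -0.90 over the 16 samples, and that of *Mt1* and *Slc30a1* an r of -0.87. *Slc39a6* and *Slc30a5* had an r of 0.92, whereas *Slc39a10* and *Slc39a6* had 0.18. These points share libraries and replicate numbers, and what the numbers stand for was not tested.

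**Figure D4:**
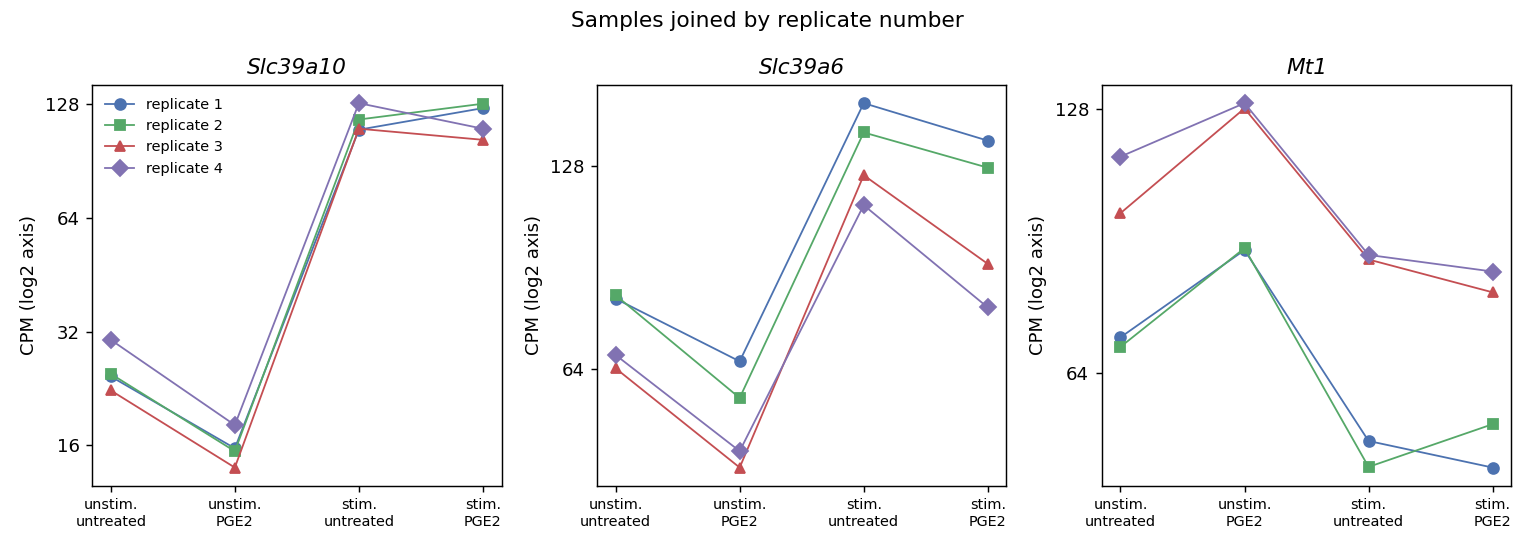
CPM (log2 axis) of *Slc39a10*, *Slc39a6* and *Mt1* in the 4 groups, with samples of the same replicate number joined by a line. The lines of *Mt1* for replicates 3 and 4 lie above those for 1 and 2 in every group, and those of *Slc39a6* lie below. The lines of *Slc39a10* fall from 22.4 to 30.4 CPM to 14.0 to 18.1 CPM with PGE2 and meet at 103 to 129 CPM with beads.

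The genes whose log2 CPM ran most like *Slc39a10* over the 16 samples, among the 8868 genes that averaged 10 CPM or more, were *Dot1l* (r = 0.993), *Slc7a1* (0.991), *Lman1* (0.991), *Dtwd1* (0.990) and *Myc* (0.990). *Dot1l* encodes a histone methyltransferase, *Slc7a1* an arginine transporter, *Lman1* a cargo receptor of the secretory pathway and *Myc* the transcription factor. After the group means were taken out, r was 0.91 for *Lman1* and 0.49 to 0.61 for the other 4. Most like *Mt1* were *Selenbp1* (0.957), *Nek1* (0.933), *Odf2l* (0.930), *Acp6* (0.929) and *Fzd7* (0.924), which kept an r of 0.89 to 0.94 without the group means. *Selenbp1* encodes a selenium-binding protein, *Nek1* a kinase and *Fzd7* a Wnt receptor. For *Slc39a10* the r over the 16 samples takes in the step between no beads and beads, on which the gene was picked. The 16 points share libraries and replicate numbers, and these likenesses are a description.

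A further 20 genes of zinc handling were examined, comprising the other Slc39a and Slc30a genes, *Mt3*, *Mt4*, *Mtf1* and *Tmem163*. PGE2 called 3 of the 13 tested in unstimulated cells, against 28.4% of all genes, and 2 of the 14 tested in stimulated cells, against 9.84%. Those lower in both were *Tmem163* and *Slc39a11*, and *Slc30a9* was higher in unstimulated cells (0.49, SE 0.0664, adjusted p = 0.000268). *Tmem163*, which encodes a zinc-binding transport protein of vesicles, stood at 3.93, 3.90, 3.94 and 2.80 CPM in unstimulated untreated cells and at 0.662 to 1.09 CPM with PGE2. No treated sample reached the untreated range, with a log2 fold change of -2.16 (SE 0.205, adjusted p = 2.71e-05 by edgeR). In stimulated cells it fell from 2.63 to 2.91 CPM to 0.773 to 1.11 CPM (-1.55, SE 0.177, adjusted p = 0.000777), and the difference between the 2 effects did not pass the test (0.62, SE 0.266, adjusted p = 0.448). *Tmem163* had 23 to 140 counts per library. *Mgat5* on the opposite strand shares 3.54% of the exon bases of *Tmem163* and had 15481 counts in all 16 libraries. Reads over the shared bases cannot be told apart without strand, and their part in the counts of *Tmem163* was not tested. *Slc39a11*, which encodes a further ZIP, fell in unstimulated cells (log2 -0.59, SE 0.115, adjusted p = 0.00271) and in stimulated cells (-0.55, SE 0.107, adjusted p = 0.0110). *Slc39a11* and *Slc30a9* were chosen for naming after their values were seen.

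*Mtf1*, which encodes the zinc-sensing factor that acts on metal response elements, stood at 24.7 ± 1.99 CPM in unstimulated untreated cells and at 24.0 ± 3.91 CPM with PGE2. With beads it stood at 37.8 ± 3.29 CPM and 33.8 ± 4.73 CPM. It rose with beads by a log2 fold change of 0.61 (SE 0.0907, adjusted p = 6.68e-05) without PGE2 and of 0.52 (SE 0.130, adjusted p = 0.00498) with PGE2, and PGE2 called it in neither state (adjusted p = 0.883 and 0.360). The gene 1110065P20Rik on the opposite strand shares 8.09% of the exon bases of *Mtf1* and had 3455 counts in all 16 libraries. Of the further zinc genes, beads called 3 higher and 5 lower of 14 tested without PGE2, and 4 higher and 2 lower of 14 tested with PGE2. The shares of all genes were 31.7% higher and 34.8% lower (66.5% in all) without PGE2, and 32.5% higher and 31.7% lower (64.2% in all) with PGE2. None of these zinc genes was a DEG with beads, against 23.2% and 22.1% of all genes. Their median log2 fold change was -0.25 without PGE2 and 0.04 with PGE2.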

How the data were processed

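RNA-seq was analysed from 16 samples of TCF1+CD8+ T cells, 4 in each of 4 groups. Per the labels, poly(A)-selected RNA was made into libraries with a NEBNext Ultra kit, which does not mark strand. The authors aligned reads to GRCm38 with HISAT2 2.0.5, counted them per gene with featureCounts 1.5.0-p3 and deposited whole-number counts and FPKM values. The annotation release and counting options are not given in the sources used here.

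Genes were filtered with filterByExpr at a minimum count of 10, scaled by TMM and tested two-sided by the quasi-likelihood method of edgeR 4.0.16 (R 4.3.3) in fits of the 8 samples compared or, for the interaction, all 16. The 10 genes and all lists were chosen with earlier results of these data known. The named genes were these 10, *Mtf1*, further zinc genes that were DEGs and averaged 1 CPM or more, at most 3 such DEGs per comparison among 23 copper and iron genes, and the 5 genes most like *Slc39a10* and *Mt1*. Exons came from GENCODE M21, in which 54495 of the 54532 gene identifiers were found. The scripts were tested on simulated data.

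Pairing was checked by the correlation of deviations from group means between samples of the same number. It lay between 0.137 and 0.444 for PGE2 without beads, 0.190 and 0.423 for PGE2 with beads, 0.112 and 0.359 for beads without PGE2 and 0.0439 and 0.281 for beads with PGE2, with every pair over 0.1 in the first 3. Among the 8869 genes that averaged 10 CPM or more, the correlation was 0.405 to 0.752 for PGE2 without beads and 0.649 to 0.760 with beads. It was 0.217 to 0.621 for beads without PGE2 and -0.0834 to 0.517 for beads with PGE2. The pairing comes from these values, as the labels do not say what a number shares. Replicates differed by more than counting noise, with a chi-square per degree of freedom of 8.46 to 56.8. Alternatives were DESeq2 1.42.0, RLE and upper-quartile factors, other filters, the replicate block, 1 fit of all samples, limma 3.58.1 on log2(FPKM + 1) and log2(FPKM + 0.1), and leaving out each replicate in turn.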

Additional observations from a re-analysis of the deposited data

Results flagged for a closer look

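*Slc39a3* stood at 29.2 CPM in stimulated cells with PGE2, replicate 1, apart from the other 3 samples of its group, which lay between 25.9 and 26.4 CPM. Of 40 sets of 4 samples examined this was 1, and chance gives about 1 in 20. The PGE2 effect on *Slc39a10* differed between stimulated and unstimulated cells by 0.693 on the log2 scale in the interaction test (adjusted p = 0.0315 by edgeR), with beads PGE2 samples being higher by 0.19 and 0.14 in replicates 1 and 2 and lower in replicates 3 and 4 (-0.10 and -0.22), against lower in 4 of 4 without beads. This term is the difference of the bead responses that *Slc39a10* was picked on, so its adjusted p is not independent of that choice. It was lost in 8 of 16 fits that left out 1 library and with limma on the FPKM values (adjusted p 0.0663 to 0.215).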

How the results depend on the processing

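Of 873 single-gene values under an alternative, 825 kept their side of the threshold or, where untested, moved less than the spread between replicates. Another 25 were no longer called, 7 were newly called and 16 untested values moved further. Of the called values 0 changed direction, whereas small uncalled or untested values could change sign. For PGE2 in stimulated cells *Slc39a10* went from 0.01 to -0.04 without stimulated PGE2 replicate 2. With the replicate block, which uses the pairing, PGE2 called 7 genes in place of 4 in unstimulated cells and 3 in place of 0 in stimulated cells, and the interaction 2 in place of 1, and it changed no other call of PGE2 or the interaction. For PGE2 in unstimulated cells, 1 fit of all samples called 1 gene, limma on log2(FPKM + 1) without a filter 2, and leaving out 1 replicate 1 to 4. For the interaction, limma on FPKM called 0 genes with either pseudocount and without the filter, and leaving out 1 replicate gave 0 to 1. Leaving out 1 replicate gave 0 to 0 for PGE2 in stimulated cells. *Slc39a10* was called for PGE2 in unstimulated cells under every alternative listed (adjusted p up to 0.0109). The order of the group means was the same in CPM and FPKM for all 10 genes, and 14 of 16 pairs had a correlation over 0.1 with either set of genes. Low counts limit *Mt2*, and shared exon bases limit *Mt2* and *Slc39a7*.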

Other observations

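Genes of copper and iron handling were examined beside the zinc genes, 22 of 23 passing the filter. In unstimulated cells PGE2 called 9 of them, 3 higher and 6 lower, against 28.4% of all genes, and in stimulated cells 2, *Fth1* higher and *Slc25a37* lower, against 9.84%. The only DEG was *Atp7b*, a copper-transporting ATPase, which had 2.83 ± 1.11 CPM in unstimulated untreated cells and 5.69 ± 2.15 CPM with PGE2 (log2 1.02, SE 0.316, adjusted p = 0.0313 by edgeR), with overlapping groups. In stimulated cells it had 2.65 ± 1.05 and 5.46 ± 2.07 CPM (log2 1.06, SE 0.331, adjusted p = 0.0713). *Fth1*, the ferritin heavy chain that stores iron, was named after its values were seen. It stood at 295, 282, 327 and 323 CPM in unstimulated untreated cells and at 568, 576, 594 and 595 CPM with PGE2. In stimulated cells it stood at 212, 200.4, 234 and 219.8 CPM and at 355, 366, 393 and 446 CPM with PGE2. The treated samples lay above the untreated ones in both states (log2 0.95, SE 0.0672, adjusted p = 5.41e-06 and log2 0.86, SE 0.0874, adjusted p = 0.000423), and the difference between the effects did not pass the test (-0.08, SE 0.107, adjusted p = 0.931).

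With beads, 6 of the 22 were called higher and 4 lower without PGE2, and 9 higher and 5 lower with PGE2. Of all genes, 31.7% were higher and 34.8% lower without PGE2, and 32.5% higher and 31.7% lower with PGE2. *Sco1*, a copper chaperone of cytochrome oxidase, rose by a log2 fold change of 1.42 (SE 0.103, adjusted p = 1.53e-07) and 1.65 (SE 0.149, adjusted p = 5.14e-06). *Tfrc*, the transferrin receptor, rose from 507 ± 72.6 to 1260.3 ± 135 CPM without PGE2 and from 365 ± 42.0 to 1030 ± 174 CPM with PGE2. *Slc11a2*, an iron importer, fell, with a log2 fold change of -1.29 (adjusted p = 1.16e-07) and -1.33 (adjusted p = 1.43e-06). For PGE2 in unstimulated cells *Tfrc* fell by 0.45 on the log2 scale (SE 0.107, adjusted p = 0.00837), without overlap of the groups.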
